A study of Homo sapiens
Mus musculus with 24 samples.

Results

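Interferon-stimulated genes are the genes that cells switch on when interferon binds its receptors, and 39 of them were followed in the host tissue of human breast tumors grown in mice. The members are the 39 murine genes of a list named by symbol, and all 39 were found once among the 16667 murine genes counted. Each tumor arose from MDA-MB-231 cells, a human triple negative breast cancer line, injected under the skin of female Rag1 null mice on a B6 background (B6/Rag1KO) at 14 weeks of age. The Rag1 deletion was carried by every mouse, controls included, and it removes mature T and B cells. Since the tumor cells are human, murine transcripts in a tumor piece come from the host cells around and within it, and human transcripts from the implanted line.

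The 24 libraries came from 5 groups, each library from 1 mouse. The 4 obese groups received a high-fat diet. CTRL (n = 4) had saline injections, Chemo (n = 5) had doxorubicin (2 mg/kg) and cyclophosphamide (100 mg/kg) every week, MC (n = 5) had moringa seed concentrate at 0.6% of the diet, and MC + Chemo (n = 6) had both, for 4 weeks. Lean mice (n = 4) ate the lean diet and served as the diet control. Libraries are named by group and mouse number. MC + Chemo 5 is titled as MC + Chemo but entered as MC in another field of the labels, and was taken as MC + Chemo.

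Type I interferons act through the receptor chains Ifnar1 and Ifnar2, which activate Stat2. Stat2 acts with Irf9 in the nucleus, in a complex that binds the promoters of the genes followed here. Interferon gamma acts through Ifngr1 and Ifngr2 and drives an overlapping set, with guanylate-binding proteins among its best known targets. The products tag proteins with Isg15, bind or cut foreign RNA, block membrane steps of viral growth and amplify the signal. In tumors these genes are read as a trace of innate immune sensing, and macrophages, dendritic cells, fibroblasts and endothelium can all express them.

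Murine counts ran from 3664056 to 9892470 per library and all 39 genes passed the filter on low counts. Levels are given as normalized counts, that is counts divided by the size factor of the library, and SD is over the libraries of a group. Reads were 3′ tags, so levels are compared between libraries and not between genes. Of the markers fixed for host cell types, 14 of 14 for macrophages, 9 of 9 for fibroblasts and 10 of 10 for endothelium were in the table. For T and B cells it was 4 of 12. Ighm (mean normalized count 215), Cd4 (41.3) and Trbc1 (36.4) had counts in every library, and Cd8b1 (2.81) was at 0 in 6. Cd3e and Ms4a1 were among those not listed. Each tumor piece is a mixture, so fewer cells of a type and less RNA per cell cannot be told apart.

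A single control library stood apart and touches every comparison with CTRL. CTRL 17 was above the other 3 CTRL libraries for 36 of the 39 genes, against 22.9% of all genes tested, and above all other 23 libraries for 28. Its level was a median of 1.56 times the mean of the other CTRL libraries, from 0.427 times for Ifi27 to 3.86 times for Rsad2. Its summed endothelial markers were 578 against 3435 to 4399 in the other CTRL libraries, its neutrophil markers 270 against 871 to 2425 and its fibroblast markers 160683 against 64970 to 89392. Whether these differences play a part in its interferon-stimulated genes was not tested. At the other end, MC + Chemo 52 was the lowest of all 24 libraries for 21 of the 39 genes. For either library, the share of all genes at the extreme of the 24 is not given here. Counts, medians and named fold changes of the murine genes against CTRL are therefore also given without CTRL 17.

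**Figure D1:**
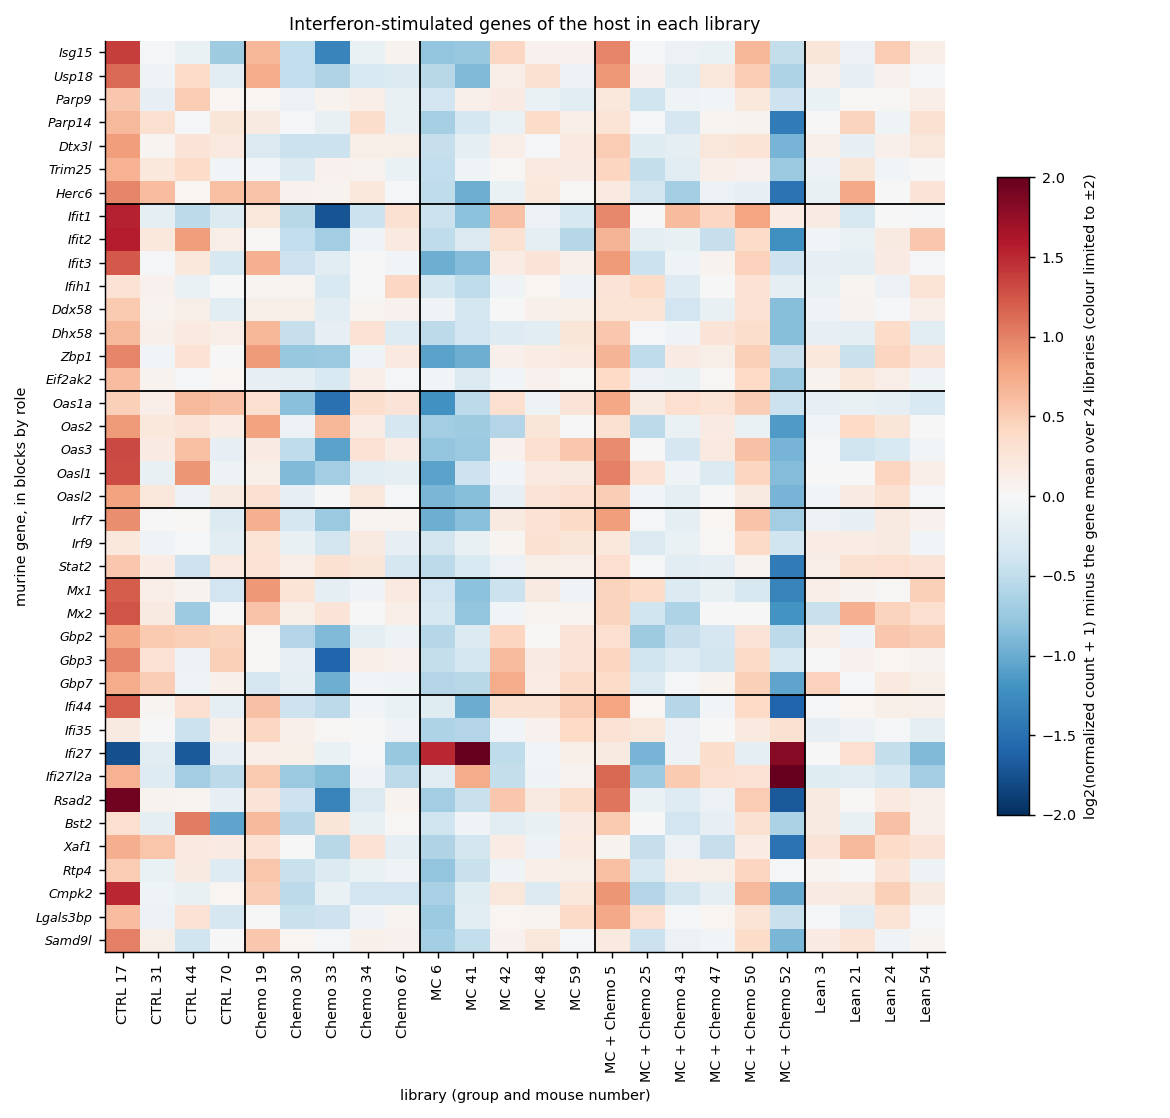
Heat map of the 39 murine interferon-stimulated genes (rows, in blocks by role) in 24 libraries (columns, in blocks by group), as log2(normalized count + 1) minus the mean of the gene over all libraries, with colours limited to 2 in either direction. CTRL 17 is high for nearly all rows, MC + Chemo 5 and Chemo 19 are high for many, MC 6, MC 41 and MC + Chemo 52 are low for many, and Ifi27 runs against the other rows.

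The genes moved together across libraries. The correlation of the log2 level of each gene with the mean of the other 38 had a median r of 0.79 over 24 libraries and of 0.72 without CTRL 17, and it was above 0.8 for 19 genes. Irf7 (r = 0.94), Rsad2 (r = 0.94) and Ifit3 (r = 0.90) were nearest to the rest. Ifi27 ran the other way (r = -0.63) and Ifi27l2a did not follow (r = -0.0031). All libraries share 1 scaling, and the value is a description without a test. As a mean of log2(normalized count + 1) over the 39 genes, CTRL 17 had 9.14, MC + Chemo 5 had 8.87 and Chemo 19 had 8.65, while MC + Chemo 52 had 7.67, MC 6 had 7.78 and Chemo 33 had 7.87. The 4 Lean libraries lay within 8.33 to 8.46, a narrower range than that of any treated group. CTRL had the highest group mean for 30 of 39 genes, and for 14 of 39 when CTRL 17 was left out.

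A set of 7 members belongs to the modifier Isg15 and the enzymes around it. Isg15, a ubiquitin-like protein that is joined to other proteins, averaged 1184 ± 835 in CTRL, 859 ± 308 in MC, 862 ± 408 in Chemo, 1093 ± 448 in MC + Chemo and 1073 ± 197 in Lean. Usp18, the protease that removes Isg15 and also dampens the receptor, averaged 186 ± 85.5 in CTRL, 126 ± 40.4 in MC, 131 ± 58.98 in Chemo, 163 ± 58.9 in MC + Chemo and 141 ± 11.7 in Lean. In both, CTRL 17 was the highest control, with 2416 for Isg15 against 567 to 904 in the other CTRL libraries. Herc6, the main ligase that attaches Isg15 in mice, averaged 307 ± 77.9 in CTRL, 174 ± 52.7 in MC, 232 ± 40.6 in Chemo, 159 ± 55.6 in MC + Chemo and 243 ± 71.4 in Lean. Trim25, a ubiquitin ligase that acts on the RNA sensor encoded by Ddx58, averaged 422 ± 93.8 in CTRL, 330.2 ± 57.97 in MC, 322 ± 33.04 in Chemo, 317 ± 93.2 in MC + Chemo and 341 ± 39.7 in Lean. Dtx3l, a ubiquitin ligase that pairs with Parp9, averaged 491 ± 127 in CTRL, 367 ± 65.1 in MC, 339.9 ± 66.8 in Chemo, 383 ± 123 in MC + Chemo and 399.9 ± 43.8 in Lean. Its partner Parp9 averaged 298 ± 70.9 in CTRL, 235 ± 36.3 in MC, 248 ± 20.3 in Chemo, 238 ± 45.5 in MC + Chemo and 251 ± 19.004 in Lean, and Parp14, a related ADP-ribosyltransferase, averaged 922 ± 183 in CTRL, 698 ± 193 in MC, 769 ± 121 in Chemo, 669 ± 216 in MC + Chemo and 838 ± 146 in Lean. All 7 lay below CTRL in each of the 4 comparisons with it, with median log2 fold changes of -0.41, -0.41, -0.36 and -0.29 in Chemo, MC, MC + Chemo and Lean. Without CTRL 17 the numbers below CTRL were 6, 6, 5 and 6, and the medians -0.15, -0.23, -0.23 and -0.095.

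A set of 8 members binds or senses foreign nucleic acid. Ifit1, which binds the capped end of foreign RNA, averaged 1070.2 ± 851 in CTRL, 732 ± 289 in MC, 665 ± 309.7 in Chemo, 1164 ± 292 in MC + Chemo and 784 ± 107 in Lean. Its relative Ifit2 averaged 342 ± 169 in CTRL, 168 ± 44.1 in MC, 173 ± 42.99 in Chemo, 189 ± 81.9 in MC + Chemo and 218 ± 47.05 in Lean. Ifit3, which forms a complex with Ifit1, averaged 927 ± 491 in CTRL, 623 ± 234 in MC, 731 ± 244 in Chemo, 781 ± 292 in MC + Chemo and 676 ± 78.6 in Lean. Ifit3 has a near-identical neighbouring copy, so its counts are uncertain. Ifih1 and Ddx58 encode the RNA sensors MDA5 and RIG-I. Ifih1 averaged 525 ± 65.2 in CTRL, 436 ± 65.5 in MC, 519.7 ± 93.02 in Chemo, 535 ± 95.5 in MC + Chemo and 509 ± 69.6 in Lean. Ddx58 averaged 525.98 ± 114 in CTRL, 465 ± 58.1 in MC, 488 ± 44.6 in Chemo, 465.9 ± 135 in MC + Chemo and 484 ± 31.3 in Lean. Dhx58, which tunes both sensors, averaged 132 ± 25.2 in CTRL, 93.3 ± 20.1 in MC, 113 ± 37.9 in Chemo, 115 ± 34.1 in MC + Chemo and 105 ± 22.6 in Lean. Zbp1, a sensor of Z-form nucleic acid that can trigger cell death, averaged 375 ± 136 in CTRL, 250.4 ± 98.4 in MC, 294 ± 144 in Chemo, 321 ± 104 in MC + Chemo and 322 ± 76.6 in Lean. Eif2ak2, the kinase PKR that halts translation on sensing RNA, averaged 201 ± 45.7 in CTRL, 169 ± 16.2 in MC, 163 ± 18.7 in Chemo, 178 ± 48.3 in MC + Chemo and 186 ± 15.7 in Lean. The group median log2 fold change was -0.32, -0.51, -0.19 and -0.26 in Chemo, MC, MC + Chemo and Lean. Without CTRL 17 it was -0.012, -0.17, 0.018 and 0.038.

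The 5 oligoadenylate synthetase genes act on the same trigger, since several of them make the messenger that activates RNase L. Oas1a, which has several near-identical copies and is thus uncertain, averaged 73.7 ± 11.2 in CTRL, 47.5 ± 18.7 in MC, 48.9 ± 23.4 in Chemo, 65.8 ± 17.1 in MC + Chemo and 45.8 ± 2.31 in Lean. Oas2 averaged 180.5 ± 44.5 in CTRL, 111 ± 35.6 in MC, 169 ± 57.5 in Chemo, 122 ± 39.4 in MC + Chemo and 153 ± 22.8 in Lean, and Oas3 averaged 171 ± 81.6 in CTRL, 112 ± 44.5 in MC, 105 ± 36.6 in Chemo, 131 ± 57.8 in MC + Chemo and 99.4 ± 12.2 in Lean. The related Oasl1, which restrains production of Irf7, averaged 213 ± 106 in CTRL, 123 ± 39.5 in MC, 109.9 ± 30.5 in Chemo, 159.6 ± 71.2 in MC + Chemo and 155 ± 22.9 in Lean. Oasl2 averaged 783 ± 220.4 in CTRL, 556 ± 215 in MC, 663 ± 90.9 in Chemo, 616 ± 183 in MC + Chemo and 673 ± 83.9 in Lean. All 5 were below CTRL in each of the 4 comparisons, with median log2 fold changes of -0.59, -0.61, -0.38 and -0.45 in Chemo, MC, MC + Chemo and Lean. Without CTRL 17 the numbers were 4, 5, 5 and 5, with medians of -0.33, -0.45, -0.15 and -0.12.

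The 3 transcription factors of the pathway had the median fold change nearest to 0 of the 6 role groups in each comparison with CTRL when all libraries were used. Stat2 averaged 403 ± 104 in CTRL, 331 ± 60.7 in MC, 399 ± 66.8 in Chemo, 327 ± 107 in MC + Chemo and 433 ± 26.2 in Lean. Irf9 averaged 420.0 ± 51.8 in CTRL, 433 ± 80.2 in MC, 415 ± 75.9 in Chemo, 421 ± 88.7 in MC + Chemo and 456 ± 31.7 in Lean. Irf7, the factor that amplifies type I interferon production, averaged 1073 ± 435 in CTRL, 853 ± 343 in MC, 923 ± 357 in Chemo, 1022 ± 386 in MC + Chemo and 909.8 ± 103 in Lean. Their log2 fold changes against CTRL lay between -0.32 and 0.13 in all 4 comparisons, and none had an unadjusted p under 0.05. Without CTRL 17 their medians were 0.11, -0.011, 0.073 and 0.21 in Chemo, MC, MC + Chemo and Lean.

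The next 5 members are large GTPases. Mx1 averaged 228 ± 120.0 in CTRL, 145 ± 37.8 in MC, 210.1 ± 64.8 in Chemo, 162 ± 62.4 in MC + Chemo and 199 ± 29.5 in Lean, and Mx2 averaged 69.2 ± 42.7 in CTRL, 47.4 ± 10.7 in MC, 63.1 ± 10.4 in Chemo, 46.6 ± 17.8 in MC + Chemo and 67.4 ± 20.7 in Lean. Both encode dynamin-like antiviral proteins, of which Mx1 is not functional in most laboratory strains. Among the guanylate-binding proteins, which attack the vacuoles of intracellular microbes, Gbp2 averaged 563 ± 60.5 in CTRL, 386 ± 103 in MC, 308 ± 75.1 in Chemo, 336 ± 106 in MC + Chemo and 468 ± 93.9 in Lean. Gbp3 averaged 302 ± 96.5 in CTRL, 236 ± 75.1 in MC, 194 ± 69.8 in Chemo, 213 ± 60.96 in MC + Chemo and 228 ± 5.42 in Lean, and Gbp7 averaged 1006 ± 262 in CTRL, 861 ± 341 in MC, 645 ± 146 in Chemo, 792 ± 259.5 in MC + Chemo and 905 ± 134 in Lean. The median log2 fold change of the 5 was -0.64, -0.53, -0.51 and -0.18 in Chemo, MC, MC + Chemo and Lean, and without CTRL 17 it was -0.42, -0.14, -0.20 and 0.0087.

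The last 11 members are membrane, nucleotide and other effectors. Rsad2, the enzyme viperin that makes a chain-terminating nucleotide, averaged 1614 ± 1347 in CTRL, 988 ± 338 in MC, 799 ± 292 in Chemo, 1026 ± 578 in MC + Chemo and 1034 ± 56.7 in Lean. Cmpk2, a nucleotide kinase coded beside Rsad2, averaged 154 ± 102 in CTRL, 99.4 ± 24.96 in MC, 97.7 ± 31.1 in Chemo, 112 ± 58.6 in MC + Chemo and 129 ± 14.5 in Lean. CTRL 17 was far above the other controls in both, with 3632 for Rsad2 against 843 to 997 in the other CTRL libraries. Bst2, the tether that holds budding virus to the cell, averaged 362 ± 206 in CTRL, 286 ± 42.1 in MC, 332 ± 104 in Chemo, 309.7 ± 91.7 in MC + Chemo and 358 ± 78.8 in Lean. Xaf1, a promoter of apoptosis, averaged 108 ± 20.8 in CTRL, 74.05 ± 17.2 in MC, 80.2 ± 18.7 in Chemo, 65.1 ± 22.2 in MC + Chemo and 105 ± 14.4 in Lean. Ifi44 averaged 897 ± 419 in CTRL, 688 ± 243 in MC, 633 ± 209 in Chemo, 661 ± 318 in MC + Chemo and 685 ± 31.5 in Lean, and Ifi35 averaged 157 ± 27.2 in CTRL, 148 ± 45.04 in MC, 172 ± 23.8 in Chemo, 178 ± 20.02 in MC + Chemo and 146 ± 7.85 in Lean. Rtp4, a chaperone of membrane receptors, averaged 753 ± 186 in CTRL, 621 ± 159 in MC, 686 ± 201 in Chemo, 797 ± 184 in MC + Chemo and 730.4 ± 77.7 in Lean. Lgals3bp, a secreted glycoprotein that binds galectins, averaged 1831 ± 542 in CTRL, 1578 ± 421 in MC, 1468 ± 232 in Chemo, 1877 ± 527 in MC + Chemo and 1648 ± 241 in Lean. Samd9l, a restrictor of cell growth and of poxviruses, averaged 299 ± 136 in CTRL, 224 ± 57.1 in MC, 276 ± 46.6 in Chemo, 229.6 ± 67.3 in MC + Chemo and 266 ± 27.8 in Lean. The median of the 11 was -0.15, -0.32, -0.22 and -0.14 in the same order of groups, and -0.066, -0.025, 0.11 and 0.13 without CTRL 17. Ifi27 and Ifi27l2a, small hydrophobic proteins of inner membranes, are described separately.

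**Figure D2:**
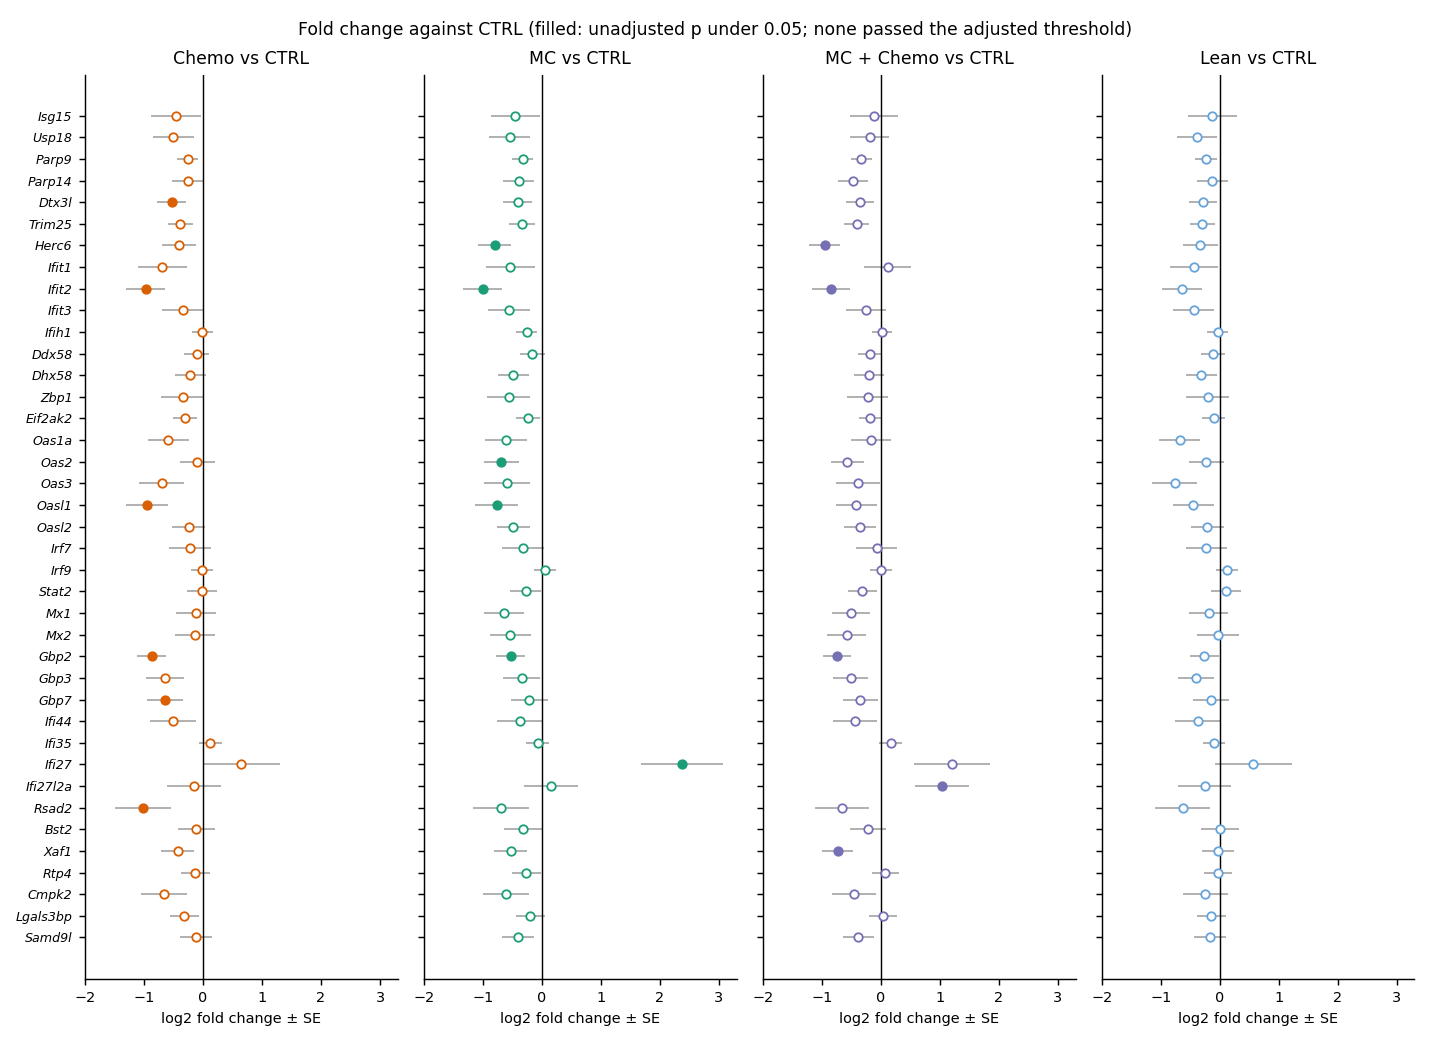
Log2 fold change of each of the 39 genes against CTRL with its standard error (edgeR), in 4 panels for Chemo, MC, MC + Chemo and Lean. Filled points have an unadjusted p under 0.05 and none passed the adjusted threshold. Points lie left of 0 for 37, 36, 32 and 35 of the 39 genes, with Ifi27 right of 0 in all 4 panels.

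The first question was whether chemotherapy alone altered these genes in the host. In Chemo, 37 of 39 genes were below CTRL, and the median log2 fold change was -0.32 (all genes, -0.0021). No member passed an adjusted p of 0.05 in edgeR's quasi-likelihood test with Benjamini-Hochberg adjustment, and neither did any other gene (0% of 15011). DESeq2 also called 0 members, and the share of all genes that it called is not given here or below. At an unadjusted p under 0.05, 6 of 39 genes were lower (15.4%), against 2.4% of all genes, and 0 were higher, against 2.13%. Without CTRL 17, the number below CTRL was 23 of 39 and the median was -0.071. Then 1 gene, Gbp2, was lower at an unadjusted p under 0.05, against 1.47% of all genes. Without Chemo 30 or without Chemo 33 the number was 3, Gbp2, Ifit2 and Oasl1, and the share of all genes in those fits is not given here.

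Gbp2 (ENSMUSG00000028270) was the clearest of the 6. It measured 652, 547, 529 and 522 in CTRL 17, 31, 44 and 70, and 388, 255, 206, 336 and 354 in Chemo 19, 30, 33, 34 and 67. Every Chemo library was below every CTRL library, which held for this 1 member of 39 against 0.726% of all genes. The log2 fold change was -0.87 (SE 0.25, p = 0.0021, adjusted p = 0.741 in edgeR), and by exact permutation the two-sided p was 0.0079, the smallest that 4 against 5 libraries can give. It was -0.79 without CTRL 17.

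The other 5 rested more on CTRL 17. Ifit2 (ENSMUSG00000045932) measured 579, 225, 349 and 215 in CTRL 17, 31, 44 and 70, and 199, 138, 120.0, 186 and 223 in Chemo 19, 30, 33, 34 and 67. The groups overlapped, since CTRL 70 was below Chemo 67. Its log2 fold change was -0.97 (SE 0.34, adjusted p = 0.956 in edgeR) and -0.59 without CTRL 17. Rsad2 had the lowest value at -1.01 (SE 0.48, adjusted p = 1.0 in edgeR), which was -0.23 without CTRL 17. Oasl1 had -0.95 (SE 0.36) and -0.62 without CTRL 17, Gbp7 had -0.64 (SE 0.31) and -0.48, and Dtx3l had -0.53 (SE 0.25) and -0.33. The two-sided exact permutation p was 0.024 for Ifit2, 0.016 for Gbp7 and 0.048 for Dtx3l, but 0.071 for Oasl1 and 0.17 for Rsad2.

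**Figure D3:**
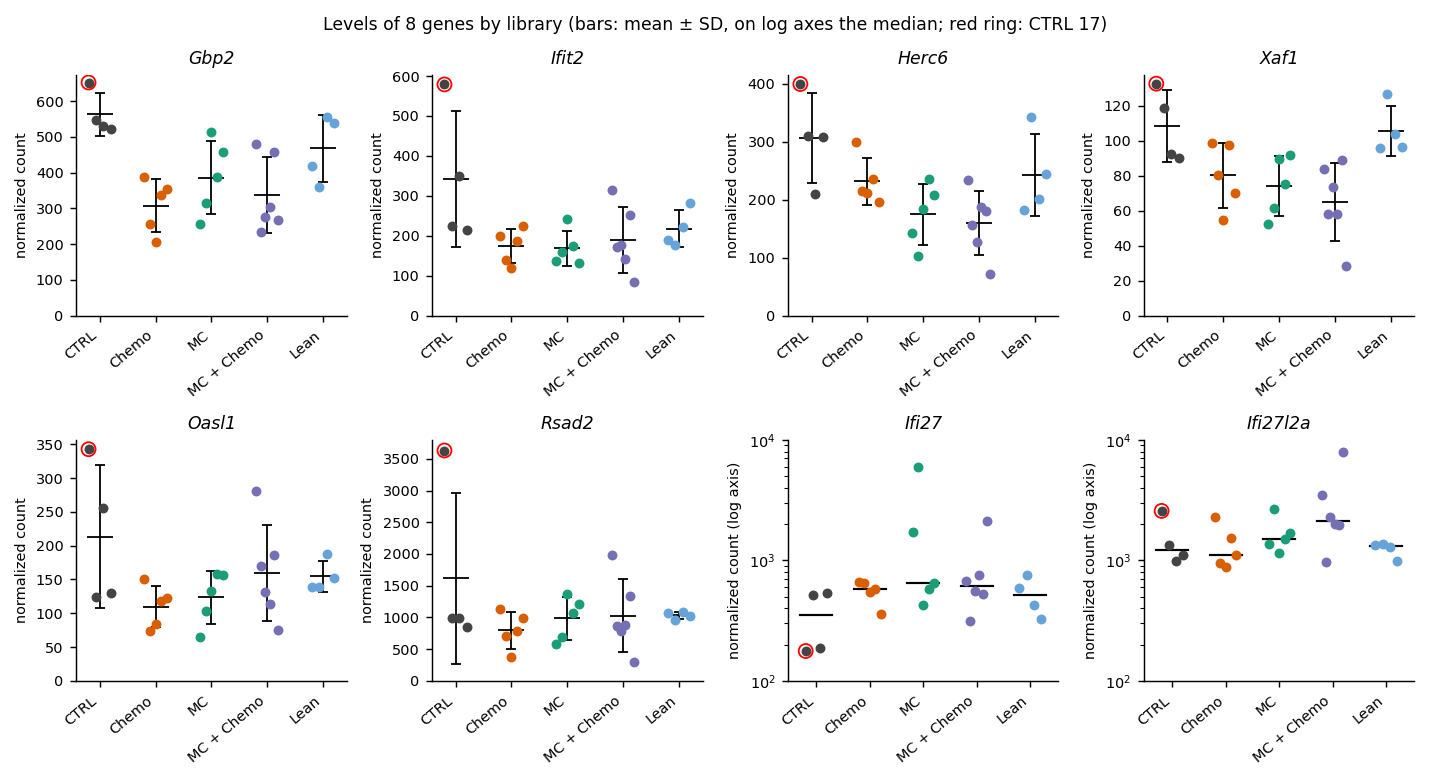
Normalized counts of 8 genes in each library by group, with mean ± SD as bars on linear axes and the median as a line on the log axes of Ifi27 and Ifi27l2a. A red ring marks CTRL 17. The 4 CTRL libraries lie above all Chemo, MC and MC + Chemo libraries for Gbp2, while Ifi27 is highest in MC 41 at 5904 and Ifi27l2a in MC + Chemo 52 at 7925.

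The second question was the effect of moringa concentrate alone. In MC, 36 of 39 genes were below CTRL, and the median log2 fold change was -0.41 (all genes, 0.00053). In edgeR's test no member and no other gene passed an adjusted p of 0.05 (0% of 15011). DESeq2 called 1 member, Ifi27, and the share of all genes that it called is not given here. At an unadjusted p under 0.05, 5 of 39 were lower (12.8%), against 3.04% of all genes, and 1 was higher, against 8.73%. Without CTRL 17, 33 of 39 were below CTRL and the median was -0.14. Then 1 gene, Herc6, was lower at an unadjusted p under 0.05, against 2.3% of all genes. Without MC 41 or without MC 6 the number was 2, Ifit2 and Herc6, and without MC 59 it was 8. These counts have no share of all genes beside them.

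Herc6 (ENSMUSG00000029798) measured 399, 309.9, 209 and 309 in CTRL 17, 31, 44 and 70, and 143, 102, 184, 236 and 207 in MC 6, 41, 42, 48 and 59. All MC libraries but MC 48 were below the lowest CTRL library. The log2 fold change was -0.80 (SE 0.28, p = 0.0095, adjusted p = 0.281 in edgeR) with a two-sided exact permutation p of 0.032, and the fold change was -0.67 without CTRL 17. Ifit2 measured 137, 159, 241, 173 and 131 in MC 6, 41, 42, 48 and 59, and had a log2 fold change of -1.01 (SE 0.34, adjusted p = 0.264 in edgeR), which was -0.64 without CTRL 17. Gbp2 measured 257, 316, 512, 387 and 458 in MC 6, 41, 42, 48 and 59, and all 5 were below the lowest CTRL library at 522. That was the case for 1 of 39 members and 0.939% of all genes, and its log2 fold change was -0.53 (SE 0.25, adjusted p = 0.409 in edgeR), or -0.47 without CTRL 17. Oas2 had -0.69 (SE 0.29) and Oasl1 had -0.77 (SE 0.36), and without CTRL 17 these were -0.51 and -0.45. By exact permutation the two-sided p was 0.032 for Ifit2 and Gbp2, 0.063 for Oas2 and 0.17 for Oasl1.

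The third question was the combination. In MC + Chemo, 32 of 39 genes were below CTRL, and the median log2 fold change was -0.33 (all genes, 0.011). Again no member passed an adjusted p of 0.05 in edgeR's test or in DESeq2, and no gene did in edgeR (0% of 15011). At an unadjusted p under 0.05, 4 of 39 were lower (10.3%), close to the 7.34% of all genes, and 1 was higher, against 5.1%. Without CTRL 17, 24 of 39 were below CTRL and the median was -0.064. Then 3 genes, Herc6, Gbp2 and Xaf1, were lower at an unadjusted p under 0.05, against 6.97% of all genes. MC + Chemo 5, which had the second highest mean level of all libraries, counted the other way, since 10 genes were lower without it, and without CTRL 44 the number was 7.

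Herc6 had the lowest p of the 4. In MC + Chemo it ran from 72.2 to 233 (median 168), below 3 of the 4 CTRL libraries throughout, with a log2 fold change of -0.95 (SE 0.27, adjusted p = 0.211 in edgeR), and -0.81 without CTRL 17. Gbp2 ran from 234 to 481 (median 289.9), below every CTRL library. Its log2 fold change was -0.74 (SE 0.24, adjusted p = 0.233 in edgeR), and -0.67 without CTRL 17. Xaf1 (ENSMUSG00000040483) measured 133, 119, 92.3 and 89.9 in CTRL 17, 31, 44 and 70, and ran from 28.2 to 89.0 (median 65.8) in MC + Chemo. Its groups did not overlap either, but CTRL 70 and MC + Chemo 50 were close. The log2 fold change was -0.73 (SE 0.26, adjusted p = 0.274 in edgeR), or -0.63 without CTRL 17. These 2 of 39 members without overlap compare with 1.62% of all genes. Ifit2 ran from 82.8 to 314 (median 174), which overlapped CTRL, with -0.85 (SE 0.32, adjusted p = 0.294 in edgeR), and -0.47 without CTRL 17. The two-sided exact permutation p was 0.019 for Herc6, 0.0095 for Gbp2, 0.029 for Xaf1 and 0.095 for Ifit2.

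Lean was compared with CTRL as the diet control. The labels name saline injections for CTRL and no injection for Lean, so diet and injections cannot be told apart, and they name none for MC without chemotherapy either. In Lean, 35 of 39 genes were below CTRL, and the median log2 fold change was -0.22 (all genes, -0.0086), and without CTRL 17 it was 18 of 39 with a median of 0.038. No member and no gene passed an adjusted p of 0.05 in edgeR's test (0% of 15029), and DESeq2 called 0 members. At an unadjusted p under 0.05, 0 members were lower, against 1.74% of all genes, and 0 were higher, against 1.37%. The 3 with the largest fold change were Oas3, Oas1a and Ifit2, with log2 fold changes of -0.77 (SE 0.38), -0.67 (SE 0.35) and -0.64 (SE 0.34). Without CTRL 17 these were -0.41, -0.68 and -0.26. Oas1a measured 73.9, 57.9, 83.3 and 79.8 in CTRL 17, 31, 44 and 70, and 46.98, 47.8, 45.98 and 42.5 in Lean 3, 21, 24 and 54. The groups did not overlap for this 1 member, against 1.48% of all genes, and by exact permutation the two-sided p, 0.029, is the smallest that 4 against 4 can give. That p was 0.086 for Oas3 and 0.20 for Ifit2.

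The 4 comparisons share the same CTRL libraries, so their values stand side by side and are not independent of each other. For Gbp2 the log2 fold changes were -0.87, -0.53, -0.74 and -0.26 in Chemo, MC, MC + Chemo and Lean. For Ifit2 they were -0.97, -1.01, -0.85 and -0.64.

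Fold changes among treated groups do not use CTRL 17, although it enters the shared estimate of the spread behind their p values. With CTRL 17 out of the fit, 1 member was lower in MC + Chemo than in Chemo at an unadjusted p under 0.05, against 6.97% of all genes. There 2 were higher, against 4.36%. Compared with MC, 0 were lower, against 6.1%, and 2 were higher, against 4.02%. In MC + Chemo against Chemo, 13 of 39 genes were lower and 26 higher, with a median log2 fold change of 0.12, and no member or gene passed an adjusted p of 0.05 in edgeR (0% of 15011). With unadjusted p under 0.05, 1 member was lower, Herc6 at -0.54 (SE 0.26), against 6.57% of all genes. Ifi27l2a at 1.19 (SE 0.42, adjusted p = 0.309 in edgeR) and Ifit1 at 0.80 (SE 0.38, adjusted p = 0.455 in edgeR) were the 2 that were higher, against 4.4%. Without MC + Chemo 52, Ifi27l2a was 0.67, and Herc6 was -0.39. In MC + Chemo against MC, 14 were lower and 25 higher, with a median of 0.12 and 0 members or genes past the adjusted threshold in edgeR (0% of 15011). Here 0 members were lower at an unadjusted p under 0.05, against 6.16% of all genes, and 1 was higher, Ifi27l2a at 0.88 (SE 0.42), against 3.71%. It was 0.36 without MC + Chemo 52. Ifi27 had -1.17 (SE 0.58, adjusted p = 0.516 in edgeR), which was -0.029 without MC 41, and Ifih1 had 0.28 (SE 0.16, adjusted p = 0.563 in edgeR). With MC + Chemo 5 left out the medians were -0.034 against Chemo and -0.037 against MC, and with it taken as MC they were -0.034 and -0.15, so their direction rests on that 1 library. DESeq2 also called 0 members in these comparisons and in the next.

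The moringa response with chemotherapy minus that without was positive for 36 of 39 genes, with a median of 0.46 on the log2 scale (all genes, -0.045). No member or gene passed an adjusted p of 0.05 in edgeR (0% of 15011). With unadjusted p under 0.05, 4 members were higher (10.3%), against 3.57% of all genes, and 0 were lower, against 3.3%. They were Oasl1 at 1.30 (SE 0.49), Ifit2 at 1.13 (SE 0.46), Ifit1 at 1.34 (SE 0.57) and, outside the 3 with the lowest p, Oas1a at 1.03 (SE 0.48), each with an adjusted p of 0.695 in edgeR. Without CTRL 17 the values of Oasl1, Ifit2 and Ifit1 were 0.97, 0.75 and 0.62. The CTRL mean of Ifit1, 1070.2, was 646 without CTRL 17, against 732 in MC, 665 in Chemo and 1164 in MC + Chemo. The median was 0.19 without CTRL 17, 0.18 with MC + Chemo 5 taken as MC and 0.28 without MC + Chemo 5.

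Ifi27 (ENSMUSG00000064215) ran against the other members. It measured 177, 519, 187 and 535 in CTRL 17, 31, 44 and 70, 658, 648, 548, 582 and 355 in Chemo 19, 30, 33, 34 and 67, and 1713, 5904, 422, 575 and 649 in MC 6, 41, 42, 48 and 59. In MC + Chemo it ran from 313 to 2121 (median 617) and in Lean from 324 to 759. The highest 3 libraries were MC 41, MC + Chemo 52 and MC 6, and the lowest 2 were CTRL 17 and CTRL 44. The log2 fold change in MC was 2.37 (SE 0.69, p = 0.0026, adjusted p = 0.242 in edgeR), with a two-sided exact permutation p of 0.095, and DESeq2 gave 2.38 with an adjusted p of 0.022. It was 2.15 without CTRL 17 and 1.23 without MC 41 (adjusted p = 0.889 in edgeR). MC 41 and MC 42 had extra RNA cleanup, and no CTRL library did. Human reads made up 47.8% of the counts of MC 41, the lowest share of all libraries. In MC + Chemo the log2 fold change of Ifi27 was 1.2 (SE 0.64, adjusted p = 0.447 in edgeR), with a two-sided exact permutation p of 0.10. That fold change was 0.67 without MC + Chemo 52 and 0.97 without CTRL 17.

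The same libraries carried markers of fat. The summed normalized count of 10 adipocyte markers was 122894 in MC 41, 114411 in MC + Chemo 52 and 36844 in MC 6, against 1094 in CTRL 17 and 2392 in CTRL 44. The range over groups was 1094 to 10447 in CTRL, 2929 to 122894 in MC, 1433 to 8919 in Chemo, 1358 to 114411 in MC + Chemo and 1499 to 23456 in Lean. With unadjusted p under 0.05, 6 of the 10 adipocyte markers were higher in MC and 6 in MC + Chemo, against 8.73% and 5.1% of all genes. None had an adjusted p under 0.05 in edgeR. Without CTRL 17 these numbers were 2 and 0, against 6.12% and 3.89% of all genes. Of 14 skeletal muscle markers, 14 were higher in MC and 13 in MC + Chemo at an unadjusted p under 0.05, and 13 in each without CTRL 17. The shares of all genes are the same as for the adipocyte markers. The muscle sum ran from 154 to 44280 in MC and from 186 to 72273 in MC + Chemo, against 180 to 239 in CTRL. Of the 3 libraries highest in Ifi27, it was 44280 in MC 41, 376 in MC 6 and 619 in MC + Chemo 52. The part of either tissue in the level of Ifi27 was not tested.

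Ifi27l2a (ENSMUSG00000079017), a relative of Ifi27, also peaked in MC + Chemo 52. It measured 2572, 1328, 978 and 1108 in CTRL 17, 31, 44 and 70, and ran from 960 to 7925 (median 2137) in MC + Chemo. MC + Chemo 5 followed with 3517 and MC 41 with 2663. The log2 fold change in MC + Chemo was 1.04 (SE 0.45, adjusted p = 0.366 in edgeR), with a two-sided exact permutation p of 0.19, and the fold change was 0.52 without MC + Chemo 52 and 1.43 without CTRL 17. Over the 5 groups the means were 1496 ± 731 in CTRL, 1668 ± 589 in MC, 1349 ± 581 in Chemo, 3105 ± 2499.9 in MC + Chemo and 1242 ± 168 in Lean.

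**Figure D4:**
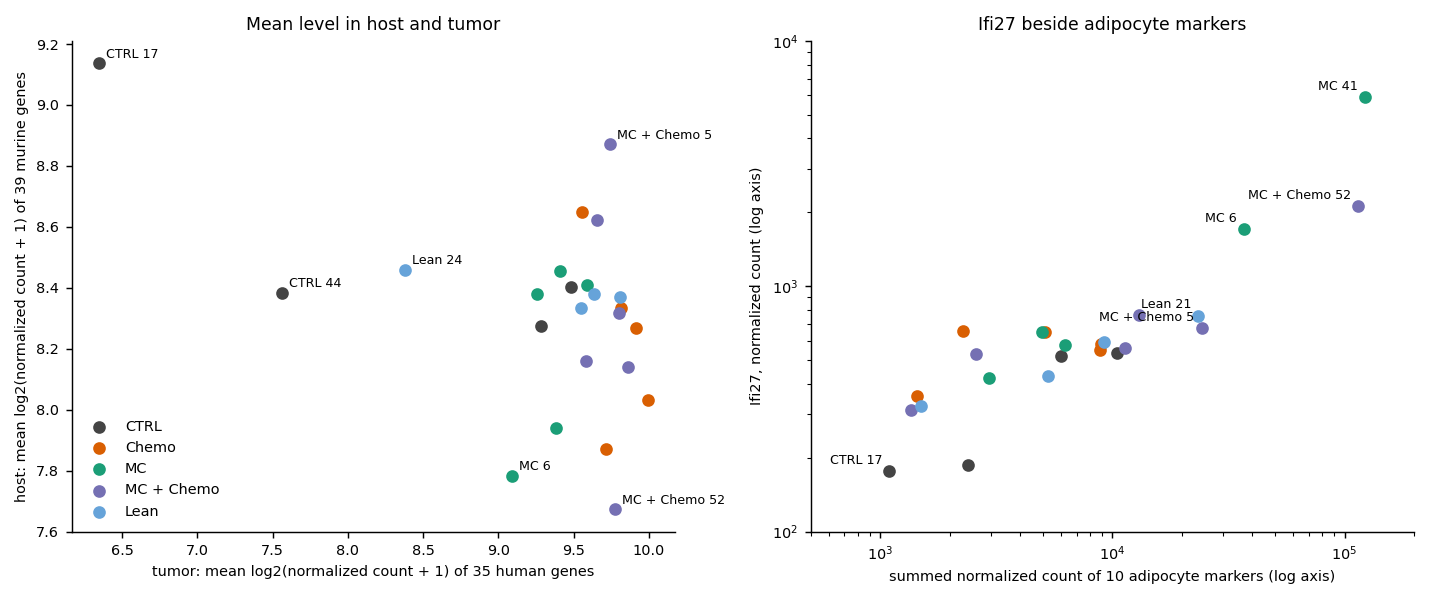
Left, mean log2(normalized count + 1) of the 39 murine genes (host) against that of the 35 human genes of the same symbols (tumor), 1 point per library. CTRL 17 has the highest host value (9.14) and the lowest tumor value (6.35). Right, Ifi27 against the summed normalized count of 10 adipocyte markers on log axes, where MC 41, MC + Chemo 52 and MC 6 lie at the upper end of both.

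Host and tumor were then compared gene by gene, because both genomes were counted in the same tumor piece. For 35 members a human gene of the same symbol was counted. The human genes were higher than in CTRL for 35 of 35 in Chemo, in MC and in MC + Chemo, with medians of 1.39, 1.01 and 1.39 on the log2 scale. The murine genes were lower for 30, 33 and 28 of the 35, with medians of -0.28, -0.36 and -0.34. The controls were uneven: CTRL 17 lay below every treated library for 34 of the human genes and CTRL 44 for 35, against 0 for CTRL 31 and 4 for CTRL 70. The share of all human genes above CTRL, and the human medians without CTRL 17, are not given here. The question here was the difference, host minus tumor, tested with limma over 10152 same-symbol pairs. It was negative for 35 of 35 members in Chemo, 34 of 35 in MC and 35 of 35 in MC + Chemo, against 50.1%, 50.9% and 44.7% of all pairs. The medians were -1.74, -1.38 and -1.67.

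No member passed an adjusted p of 0.05 in limma in the 3 comparisons, against 0% of all pairs in Chemo, 0% in MC and 0.0296% in MC + Chemo. At an unadjusted p under 0.05 there were 34, 30 and 33 of 35, against 10.4%, 11% and 12.3% of all pairs. Without CTRL 31, 16 members passed the adjusted threshold in Chemo and 18 in MC + Chemo, and without CTRL 70, 10 did in MC + Chemo. The number thus depended on which control was left out. The share of all pairs past that threshold in the same fits is not given here, so these numbers have no background beside them. Without CTRL 17 no member passed it in any of the 3 comparisons, and the medians were -1.07, -0.73 and -1.06.

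Herc6 had the lowest p of the members in MC and in MC + Chemo. Its host minus tumor difference was -2.43 in MC + Chemo (SE 0.46, adjusted p = 0.054 in limma), -2.03 in Chemo (SE 0.48, adjusted p = 0.205 in limma) and -1.87 in MC (SE 0.48, adjusted p = 0.384 in limma). Human HERC6 measured 62.0, 467, 117 and 349 in CTRL 17, 31, 44 and 70, and lay between 475 and 520.3 in MC + Chemo, above all 4. The murine gene in the same tumors was at or below 233, as given above. In Chemo the lowest p was that of Ifit2, at -2.23 (SE 0.52, adjusted p = 0.205 in limma), and Dtx3l had -1.74 (SE 0.42, adjusted p = 0.205 in limma). Dtx3l in MC + Chemo had -1.61 (SE 0.40), Oas2 had -2.65 (SE 0.67) in MC + Chemo and -2.37 (SE 0.69) in MC, and Ifih1 had -1.32 (SE 0.38) in MC. Ifi27 was the 1 pair with a positive difference, 0.28 (SE 0.64) in MC, where both genomes were above CTRL.

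**Figure D5:**
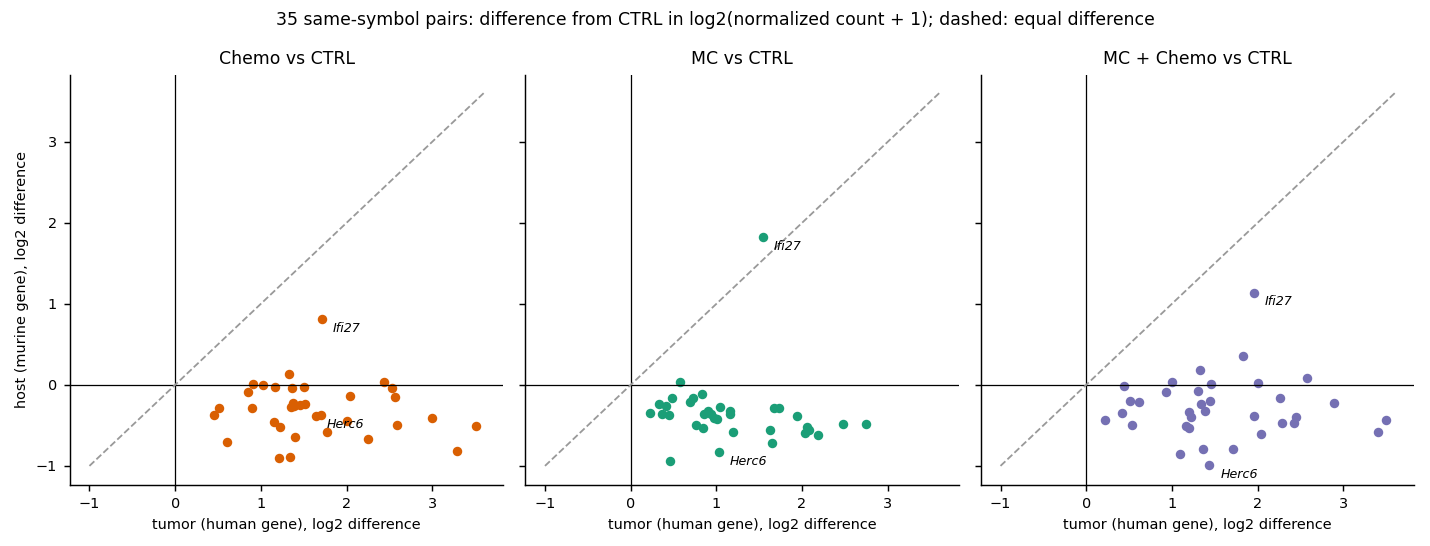
Difference from CTRL in log2(normalized count + 1) of 35 same-symbol pairs, murine gene (host) against human gene (tumor), for Chemo, MC and MC + Chemo. All points lie right of 0, most lie below 0 on the host axis, and only Ifi27 in MC lies above the dashed line of equal difference.

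The control libraries differed widely in the human genes. The mean log2 level of the 35 human genes was lowest in CTRL 17 at 6.35 and next in CTRL 44 at 7.56, with CTRL 31 at 9.48 and CTRL 70 at 9.28. Chemo libraries lay between 9.56 and 9.99, MC between 9.09 and 9.59 and MC + Chemo between 9.58 and 9.86. CTRL 17 was the lowest of 24 libraries for 29 of the 35 human genes, and CTRL 44 for the other 6. The host mean of CTRL 44, 8.38, was like those of CTRL 31 and CTRL 70 at 8.40 and 8.27. Human reads made up 66.1% of the counts of CTRL 17 and 70.1% of those of CTRL 44, within the 47.8% to 74.0% of all libraries. How reads that match both genomes were assigned is not given in the sources used here.

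The upstream parts of the pathway were listed separately. Of 13 interferon ligand genes, 0 were in the murine table, which held no gene with fewer than 72 reads over the 24 libraries. All 6 receptor chains were there. Ifnar1, the signalling chain of the type I receptor, measured 107 ± 8.99 in CTRL, 74.2 ± 15.5 in MC, 107 ± 12.8 in Chemo, 65.9 ± 19.04 in MC + Chemo and 102 ± 18.5 in Lean. Its log2 fold change was -0.71 in MC + Chemo (SE 0.20, adjusted p = 0.225 in edgeR) and -0.52 in MC (SE 0.21, adjusted p = 0.336 in edgeR), against -0.010 in Chemo (SE 0.21). Without CTRL 17 these were -0.73, -0.55 and -0.026. Ifngr1, the binding chain for interferon gamma, was 0.53 in Chemo (SE 0.21, adjusted p = 1.0 in edgeR), or 0.48 without CTRL 17. Of 15 signalling genes, 0, 2, 1 and 0 were lower at an unadjusted p under 0.05 in Chemo, MC, MC + Chemo and Lean, Irf5 (-0.64, SE 0.23) and the feedback inhibitor Socs1 (-0.78, SE 0.34) in MC and Irf1 (-0.41, SE 0.15) in MC + Chemo. Of 11 further sensors and adaptors, Mavs at 0.75 (SE 0.32) in MC was the 1 gene under that p. Without CTRL 17 the values were -0.70 for Irf5, -0.73 for Socs1, -0.47 for Irf1 and 0.68 for Mavs.

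A further list of 78 tested interferon-stimulated genes outside the 39 was mostly below CTRL too. In Chemo, MC, MC + Chemo and Lean, 70, 69, 59 and 58 of them were below CTRL, with medians of -0.26, -0.39, -0.26 and -0.18, and 6, 9, 14 and 0 were lower at an unadjusted p under 0.05, against 2.4%, 3.04%, 7.34% and 1.74% of all genes. In MC + Chemo 2 were higher, Ifitm1 at 0.94 (SE 0.28) and Ifit1bl2 at 1.21 (SE 0.48), both named after their values were seen. Without CTRL 17 the numbers below CTRL were 51, 63, 48 and 42, with medians of -0.099, -0.21, -0.079 and -0.0090. The numbers lower at that p were then 3, 1, 4 and 0, against 1.47%, 2.3%, 6.97% and 1.09% of all genes. None had an adjusted p under 0.05 in edgeR. The chemokines Ccl5 and Cxcl9, which draw T cells and NK cells, had the lowest p in Chemo. Cxcl9 averaged 1427 ± 235 in CTRL, 1009 ± 417 in MC, 641 ± 140 in Chemo, 478 ± 344 in MC + Chemo and 1358 ± 332 in Lean, with a log2 fold change of -1.57 in MC + Chemo (SE 0.42, adjusted p = 0.171 in edgeR) and -1.15 in Chemo (SE 0.44), or -1.64 and -1.2 without CTRL 17. Its highest MC + Chemo library, at 927, was below its lowest CTRL library, at 1275. Ccl5 had -1.51 in Chemo (SE 0.49) and -1.58 in MC + Chemo (SE 0.47), and -1.10 and -1.19 without CTRL 17. Gbp4 and Gbp8, relatives of the members Gbp2, Gbp3 and Gbp7, had -1.2 (SE 0.34) and -1.26 (SE 0.36) in MC + Chemo, and Gbp5 had -0.81 (SE 0.33) in Chemo. Without CTRL 17 they had -1.32, -1.26 and -0.68. In MC the lowest p values were those of Plac8 (-1.07, SE 0.38), Ifi204 (-0.78, SE 0.28) and Ifi207 (-0.67, SE 0.26), which were -0.45, -0.47 and -0.38 without CTRL 17.

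Macrophage markers were read beside these genes as a measure of the myeloid part of the host tissue. Their summed level ran from 27906 to 33021 in CTRL, 13333 to 38908 in MC, 27150 to 42955 in Chemo, 30212 to 40682 in MC + Chemo and 26760 to 34195 in Lean, and 0 of 14 had an unadjusted p under 0.05 in any of the 4 comparisons, although 1 was higher in MC + Chemo without CTRL 17. MC 6, the second lowest library for the mean of the 39 genes, had the lowest macrophage sum, whereas MC + Chemo 52, the lowest, had 37438. The part of macrophage content in the levels was not tested.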

How the data were processed

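Murine and human gene counts came from 24 tumor libraries made with a 3′ tag method (QuantSeq, 50-base forward reads). The authors counted reads per gene on the BlueBee platform and deposited raw counts for each genome, together with normalized counts, a depth-scaled signal. The submitters' processing notes name DESeq2 1.22.2 and GRCm38, and the human build is not given in the sources used here. In both tables the normalized signal as deposited equaled the count divided by 1 size factor per library.

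Murine counts were tested with edgeR 4.0.16 (R 4.3.3), with TMM scaling, filterByExpr, the quasi-likelihood F test and Benjamini-Hochberg adjustment over all genes tested. The 20 libraries of the obese groups were fitted together, and all 24 for Lean against CTRL. Host minus tumor used limma 3.58.1 on log2(normalized count + 1), for same-symbol pairs with a mean normalized count of at least 10 in both genomes, over the 20 libraries. Exact permutation tests used log2(normalized count + 1) with numpy 2.4.6, over all regroupings, and DESeq2 1.42.0 was an alternative. The edgeR, DESeq2 and limma tests were first checked on simulated data, and the permutation test was not. Every member is named with its levels. Against CTRL, statistics are given for up to 8 members with the lowest unadjusted p under 0.05 and the 3 with the largest fold change, and elsewhere for the 3 with the lowest p. The members and lists were chosen with earlier results of these data known. Groups follow the labels, replicates are separate mice, and no 2 libraries had identical counts. Alternatives covered tool, scaling, filter, pseudocount, libraries fitted, the group of MC + Chemo 5, the 3 libraries with extra RNA cleanup and each replicate left out. The libraries with extra RNA cleanup were MC 41, MC 42 and Lean 3. The values of role groups, pathway lists and pathway genes without CTRL 17 were added after the data were seen. Human counts ran from 7796231 to 17621273 per library. Counts carry no molecular identifiers here, so reads may not be independent molecules.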

Additional observations from a re-analysis of the deposited data

Results flagged for a closer look

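Single libraries lay far from the rest of their group, by Dixon's ratio of gap to range, in 17 of the 195 combinations of gene and group. Chance alone gives about 1 in 20, and the genes move together, so these are not independent. CTRL 17 was such a library for 6 genes and was the high one each time, with normalized counts of 2343 for Ifit1, 3632 for Rsad2, 306 for Cmpk2, 269 for Eif2ak2, 247 for Oas2 and 169 for Dhx58. Chemo 19 was high for Ifit3 at 1152, Usp18 at 235 and Samd9l at 358. Chemo 33 was low for Ddx58 at 409 and Gbp3 at 72.6. MC 41 was high for Ifi27 at 5904, and MC + Chemo 52 was high for Ifi27 at 2121 and Ifi27l2a at 7925. In Lean, Irf9 was low in Lean 54 at 409, and Lean 24 was high for Dhx58 at 139 and Cmpk2 at 150.4. The causes were not tested.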

How the results depend on the processing

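No fold change of the members picked for low p or large fold change changed direction under the alternatives run. Other members did change direction. Without CTRL 17 the number of the 39 below CTRL went from 37 to 23 in Chemo and from 36 to 33 in MC. It went from 32 to 24 in MC + Chemo and from 35 to 18 in Lean. Of the values of the picked members, 524 kept direction and side of the threshold. The 1 that passed it was Ifi27 in MC under DESeq2 (adjusted p = 0.022), which made the number of members called in MC 1. Of the counts and medians, 330 were taken as the same and 26 as moved. Some medians changed sign, reaching 0.038 in Lean against CTRL, -0.034 in MC + Chemo against Chemo and -0.15 in MC + Chemo against MC. The number lower at an unadjusted p under 0.05 in Lean was 2 with DESeq2, 2 with only the compared groups fitted and 3 without MC 41 and MC + Chemo 52, a choice made after seeing the data. In MC it was 3 with MC + Chemo 5 taken as MC, 3 without the libraries with RNA cleanup and 3 without MC 41 and MC + Chemo 52, and in MC + Chemo it was 9 with MC + Chemo 5 taken as MC. Leaving out 1 library at a time gave 1 (CTRL 17) to 8 (CTRL 70) in Chemo, 1 (CTRL 17) to 8 (MC 59) in MC, 3 (CTRL 17) to 10 (MC + Chemo 5) in MC + Chemo and 0 to 2 (CTRL 31 or CTRL 70) in Lean, with 7 in MC + Chemo without CTRL 44 and 3 in Chemo without Chemo 30 or Chemo 33. Host minus tumor calls in MC + Chemo were 1 with pseudocount 5, 1 without the filter and 1 with MC + Chemo 5 taken as MC, and 0 to 18 with 1 library left out, while in Chemo they were 0 to 16, the highest without CTRL 31 in both. The cause was not tested. Beside these counts under alternatives, the share of all genes is given only without CTRL 17, and none is given for pairs.

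The median log2 fold change of the members ran over all alternatives from -0.43 to -0.071 in Chemo, -0.53 to -0.14 in MC, -0.44 to -0.064 in MC + Chemo and -0.30 to 0.038 in Lean, with the value nearest to or above 0 each time without CTRL 17. No paired analysis was possible because the groups share no mouse numbers. With 4 to 6 libraries a group and 1 control that stood apart, small differences were not detectable at this depth and spread.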

Other observations

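Lists of other host cell markers were read beside the interferon-stimulated genes, as counts with no test of a list. Neutrophil markers had a median log2 fold change of 1.73, 0.28, 1.30 and 0.83 in Chemo, MC, MC + Chemo and Lean. At an unadjusted p under 0.05, 4 of 7 were higher in Chemo, against 2.13% of all genes, and 4 of 7 in MC + Chemo, against 5.1%, and these numbers were 4 and 2 without CTRL 17. Their summed level ran from 270 to 2425 in CTRL, the lowest being CTRL 17, and from 1077 to 7957 in Chemo. NK cell markers had medians of -0.58, -0.58, -1.0 and -0.14 in the same order, with 0, 1, 3 and 0 of 6 lower at that p, against 7.34% of all genes in MC + Chemo, and 0, 0, 3 and 0 without CTRL 17. Conventional dendritic cell markers had a median of -0.70 in MC + Chemo, with 3 of 6 lower with and without CTRL 17. None of these markers had an adjusted p under 0.05 in edgeR. Among human genes, Lean 24 had a mean log2 level of the 35 same-symbol genes of 8.38, below every treated library, while its host mean of 8.46 was the highest of the Lean group.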
